A study of Mus musculus with 24 samples.

Results

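Translation initiation, elongation and termination factors are the proteins that bring a ribosome to a messenger RNA, start it at the right codon, move it along and release it. The genes described here were chosen by a rule on symbols, with earlier results of these data known. The rule took every mouse symbol that begins with Eif1 to Eif6 or Eef, together with Etf1, Gspt1, Pabpc1 and Pabpc4. It left out the 4E-binding proteins, the eIF2 kinases, Eif2s3y and pseudogenes. This gave 65 members among 52636 genes, of which 64 are protein coding and 1, Eif2c5, is a long noncoding RNA caught by its symbol. After the filter on low counts 62 members remained to be tested. Eif4e1b and Eif2c5 had 0 counts in all 24 libraries, and Eef1akmt3, a lysine methyltransferase of eEF1A, had 31 counts spread over 8 libraries.

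The RNA came from polysomes, that is, messenger RNA with several ribosomes on it, of liver from C57BL/6 mice aged 5 months. One diet group was restricted to 30% fewer calories for 3 months from the age of 2 months (CR), and the other ate ad libitum (AL). Livers were collected at zeitgeber times (ZT) 2, 6, 10, 14, 18 and 22 h, which makes 12 groups with 2 libraries apiece. The sources used here do not give the hours at which CR mice were fed. Total RNA was not analysed here, so the amount of a transcript and its loading onto polysomes cannot be told apart. Fewer cells of a type and less RNA per cell cannot be told apart either. The labels do not say that libraries of a group come from separate animals, so the spread behind each p-value is that between libraries and may be technical.

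Each library held 13765993 to 60780432 counted reads, of which 1.02% to 62.2% fell on ribosomal RNA features. The reads on all other features numbered 5641120 to 59625960. Of these, members took 0.867 ± 0.0952% in AL and 0.972 ± 0.12% in CR (SD, n = 12 each). Hepatocyte markers such as albumin summed to between 36814 and 102100 CPM (counts scaled to a common library size with TMM), with none of 10 higher and 1 lower in CR. The 12 Kupffer cell and macrophage markers summed to 243 to 705 CPM in AL and 136 to 248 CPM in CR, with 11 called lower and 1 higher. Of 9 tested lymphocyte markers 2 were lower, and of 5 tested cholangiocyte markers none was called. Of 14 acute phase genes 1 was higher and 4 lower. The library AL ZT22 2C stood apart, with 53660 CPM of acute phase, 705 CPM of Kupffer and 116 CPM of cholangiocyte markers, against AL medians of 10326, 339 and 37.8 CPM. Without it Eif5b had a log2 difference of 1.05 on the diet average. The part of these cells in the members' differences was not tested.

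Initiation begins when eIF2, carrying the initiator transfer RNA, joins the small ribosomal subunit with eIF1, eIF1A, eIF5 and the many-subunit scaffold eIF3. The cap-binding complex eIF4F (eIF4E, the helicase eIF4A and the scaffold eIF4G) loads this complex onto the message, and eIF5B then joins the large subunit. During elongation eEF1A delivers aminoacyl transfer RNAs and eEF2 moves the ribosome on. Many elongation factor messages carry a terminal oligopyrimidine (TOP) start, a C followed by a run of pyrimidines, through which mTORC1 signalling and LARP1 are known to control their translation. Liver translation is also known to follow feeding and the time of day.

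Of the 65 members, 49 have an entry in the RefSeq table of start sites (GRCm38.p6); for Eif4e2 the first of 3 listed starts is shown. The sequences below show the 15 bases before and the 15 bases from the annotated start of 8 members, printed 5′ to 3′ on the gene's own strand. Eif5b, Eif3j1, Eif2s2 and Eif4e2 are shown because their levels differed between diets, Eef2 for its time course, and Eef1a1, Eif3f and Eif2s3x, which were not called, as examples of the run. Capitals mark a C followed by at least 4 bases that are each C or T, whose C lies within 5 bases of the start, searched on the gene's strand only. They begin at the matching C nearest to the start, and pyrimidines directly before that C stay in lower case. The first 3 hold such a run and the last 5 do not.
Eef1a1, chr9:78481710-78481739, minus strand: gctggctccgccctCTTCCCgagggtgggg
Eif3f, chr7:108934400-108934429, plus strand: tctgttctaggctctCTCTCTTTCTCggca
Eif2s3x, chrX:94212637-94212666, minus strand: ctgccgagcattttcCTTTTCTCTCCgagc
Eef2, chr10:81176616-81176645, plus strand: tataaaaggccgggcgttgacgtcagcggt
Eif5b, chr1:37997995-37998024, plus strand: ggcgcctgggttcccacctggccggcggct
Eif3j1, chr2:122028565-122028594, plus strand: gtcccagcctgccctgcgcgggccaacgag
Eif2s2, chr2:154892892-154892921, minus strand: cacgtaaggttggctttactgtacgcctgc
Eif4e2, chr1:87213896-87213925, plus strand: ctgagcgcctcgccagccaaccggaagtag

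A run was found at a listed start of 11 of the 49 matched members, or 22.4%, against 21.2% of all 27025 genes in the table, so its share among members is near that of genes in general. Of the 10 members on a list of classical TOP messages, 5 could be matched and 2 held a run. A match describes these letters at one annotated start and is not a test of TOP regulation.

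Per length of exon, the most abundant members were Eef1a1, with 361.9 ± 99.2 RPKM (CPM divided by exon length in kilobases, SD, n = 24 libraries), and Eif1, the start codon selection factor, with 274.9 ± 137 RPKM. Eef2 followed with 176.7 ± 57.6 RPKM and Eif5a, which helps ribosomes past difficult peptide bonds, with 100.3 ± 26.0 RPKM. These are the 4 members above 100 RPKM. The gap between Eef1a1 and Eif1 was below either SD, and that between Eef2 and Eif5a was above either SD. The lowest tested members were Eef2k, the kinase that inhibits eEF2, with 0.583 ± 0.279 RPKM, Eef1a2, the muscle and nerve form of eEF1A, with 0.283 ± 0.803 RPKM, and Eif5a2, the second eIF5A gene, with 0.0327 ± 0.0332 RPKM.

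The subunits of eIF2 differed in level. Eif2s2, the beta subunit, stood at 31.2 ± 13.03 RPKM, Eif2s1, the alpha subunit that stress kinases phosphorylate, at 2.81 ± 0.97 RPKM, and Eif2s3x, the gamma subunit, at 4.16 ± 1.21 RPKM (n = 24 libraries). Lengths are of all annotated exons of a gene joined, so a gene with long rarely used exons reads low on this scale. Transcripts of other genes share 34.6% of the 50-base words (stretches of sequence) of Eif2s3x, 10.3% of those of Eif2s2 and 5.8% of those of Eif2s1. For Eef1a1 the share was 40.4%. The effect of shared words on these levels was not tested. Among close relatives, Eef1a1 exceeded Eef1a2 and Eif1 exceeded Eif1b in counts in all 12 groups.

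The diet average sets the 6 CR groups, equally weighted, against the 6 AL groups. By the quasi-likelihood test of edgeR, with p-values adjusted over 15490 genes (Benjamini-Hochberg), 5 members were higher in CR and 2 lower. The members higher in CR were 8.06% of those tested against a background of 5.60% of all genes, and those lower were 3.23% against 7.05%. Both directions together gave 11.3% of members and 12.7% of all genes. The share of members called at the adjusted threshold is thus near that of genes in general. At an unadjusted p under 0.05 (edgeR), 24.2% of members and 12% of all genes were higher in CR, and 11.3% and 14.5% lower. Among genes of mean at least 10 CPM, 4 of 54 members were called higher and 1 lower, against 473 and 464 of 5716 genes. The median difference of members was 0.10 on the log2 scale against -0.02 for all genes. A positive difference was seen in 39 of 62 members (62.9%) against 48.5% of all genes. At a mean of at least 10 CPM the medians were 0.13 and 0.02, with 68.5% of members and 52.4% of genes positive. In no member did all 12 CR libraries lie on one side of all 12 AL libraries, which held for 0.284% of all genes.

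The counts depend on single libraries and on the scaling. DESeq2 called 11 members higher and 4 lower, together 24.2% of members against 16.2% of all genes. EdgeR without a composition factor called 1 higher and 0 lower, or 1.61% against 7.55%. Leaving out the second CR library of ZT10 raised the counts to 12 and 6, or 29.0% against 17.6%. Leaving out other single libraries moved the counts of members, and the share of all genes called moved as well. Such fits keep 1 library in a group, and their counts are not read as a result about members. Over the fits without a single library, the log2 difference of Eif5b ran from 0.77 to 1.33.

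**Figure D1:**
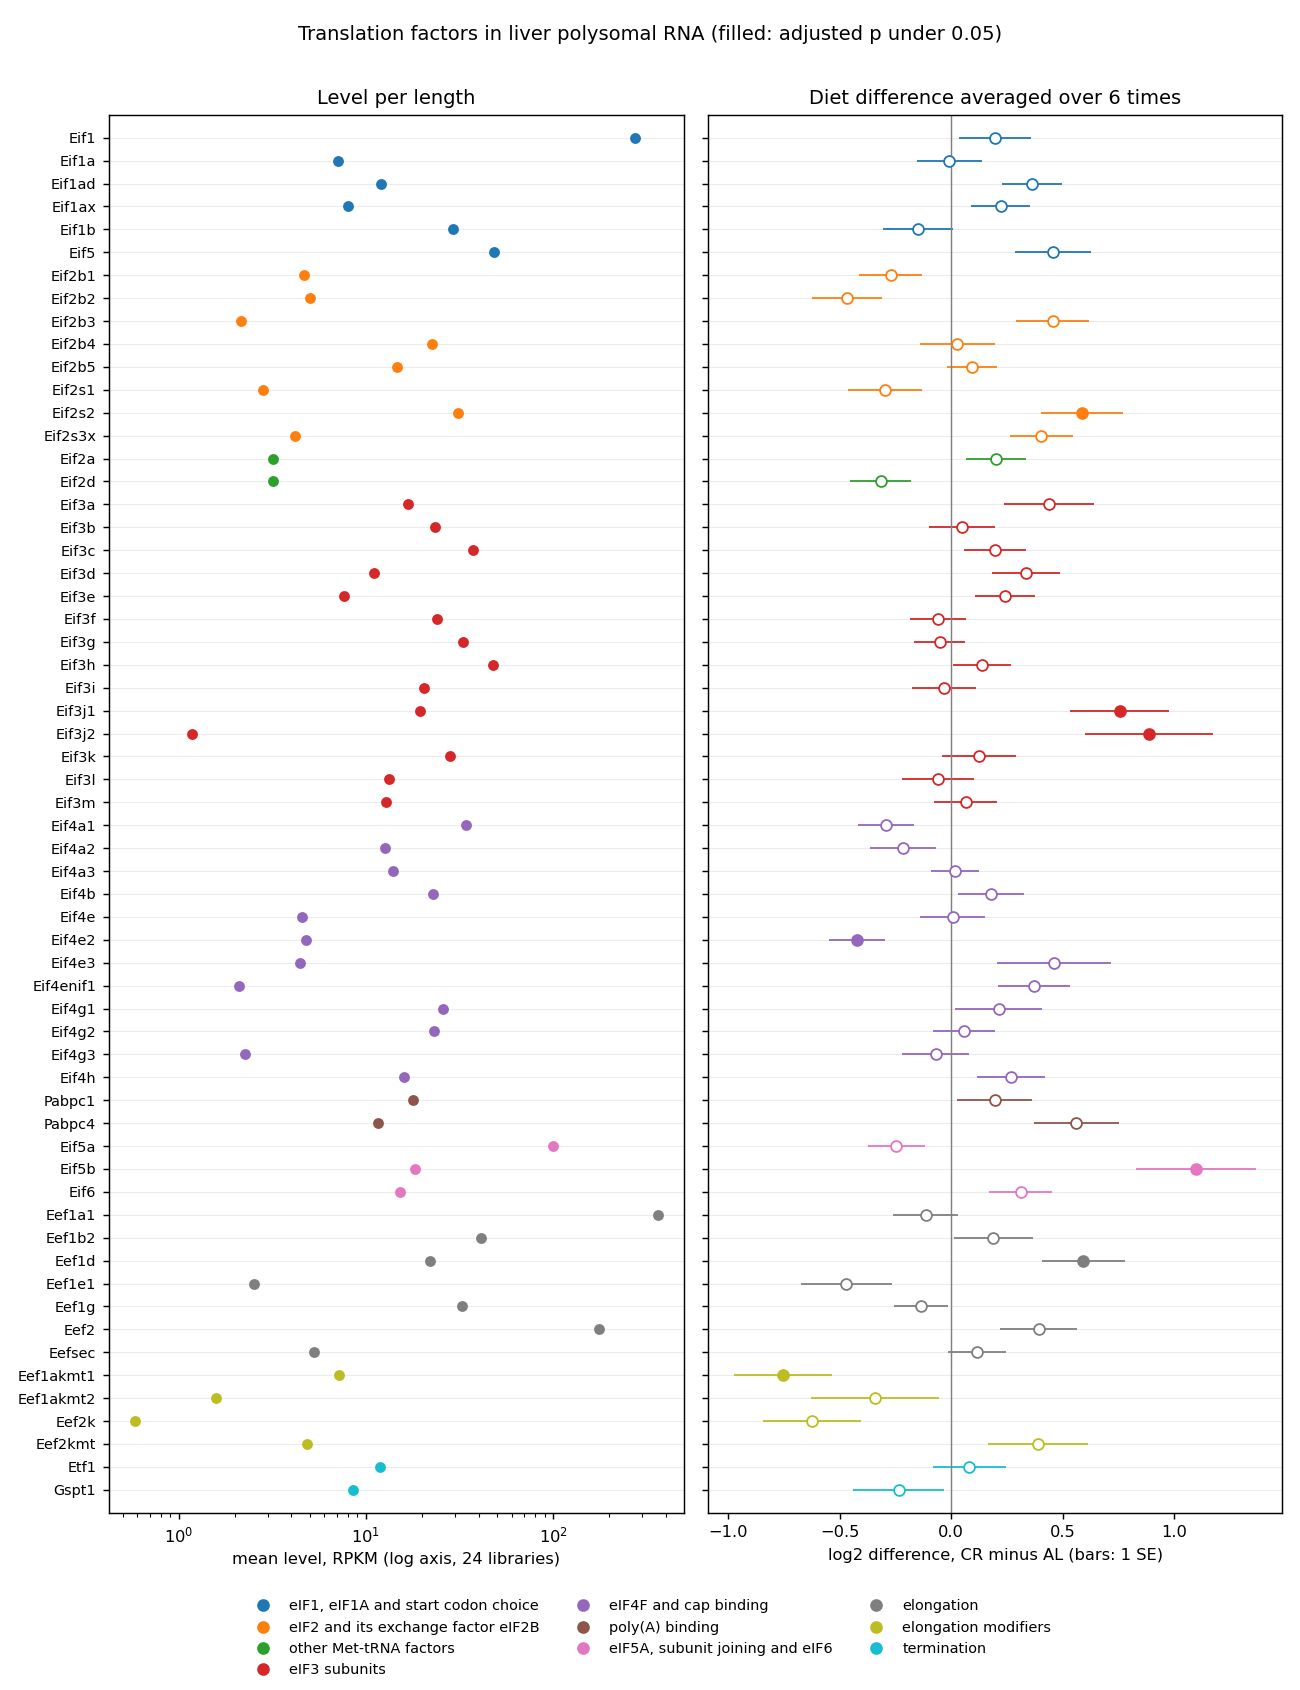
Left, mean level per exon length (RPKM, log axis) and right, log2 difference CR minus AL averaged over 6 times (bars, 1 SE) of 60 tested members coloured by role; Eef1a2 and Eif5a2 are left out because a group without counts gives them no usable error. Filled points have an adjusted p under 0.05: 5 members lie to the right, led by Eif5b at 1.10, and 2 to the left.

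Eif5b, the GTPase that joins the ribosomal subunits, showed the firmest diet difference (chr1:37998010-38055579, plus strand, GRCm38). At ZT2 its AL libraries held 45.0 and 39.8 CPM and its CR libraries 95.1 and 54.2 CPM. At ZT6 the AL libraries held 115 and 171 CPM and the CR libraries 330.4 and 369 CPM. Both groups were higher at ZT6 than at ZT2, and the diets did not overlap at either time.

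At ZT10 the Eif5b levels were 128 and 65.5 CPM in AL and 371.5 and 55.6 CPM in CR, so that the lower CR library fell below both AL libraries. At ZT14 they were 88.8 and 122 CPM in AL and 144 and 300.7 CPM in CR. At ZT18 they were 392 and 93.7 CPM in AL against 354 and 383.5 CPM in CR, and here the highest of all 24 libraries was an AL one. At ZT22 they were 50.9 and 78.0 CPM in AL and 281 and 126 CPM in CR. The CR mean was above the AL mean at all 6 times, and single libraries overlapped at ZT10 and ZT18.

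The difference of Eif5b averaged 1.10 ± 0.27 on the log2 scale (SE, adjusted p = 0.00909 in edgeR's test). It was called in all 36 alternative analyses run, with log2 differences from 0.77 to 1.33. Libraries of one group differed in Eif5b by a median factor of 1.64, by 6.68 in CR ZT10 and by 4.19 in AL ZT18. Exons of Rev1 overlap 16.8% of the exon length of Eif5b, and in libraries without strand these reads cannot be told apart.

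Eif3j1 encodes the loosely held eIF3j subunit near the decoding site (chr2:122028546-122056598, plus strand). Overlaps with exons of Gm47314 and Spg11 came to 20.2% of its exon length, and other genes share 50.9% of its 50-base words. Eif3j1 ranged from 29.3 through a median of 81.6 to 209 CPM in AL and from 36.5 through 152.5 to 235 CPM in CR. The difference was 0.76 ± 0.22 on the log2 scale (adjusted p = 0.0273, edgeR), with the same sign at 6 of 6 times. Its retained copy on chromosome 18, Eif3j2, shares 90.8% of its 50-base words with Eif3j1, so reads of these genes may have been split by the authors' counting. Eif3j2 lay at 0.322 to 7.22 CPM in AL and 0.625 to 7.07 CPM in CR, a log2 difference of 0.88 ± 0.29 (adjusted p = 0.0457), and counts as no separate finding.

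Eef1d, an exchange factor that recharges eEF1A with GTP (chr15:75894205-75909556, minus strand), ranged from 52.4 through 113 to 241 CPM in AL and from 50.2 through 187 to 255 CPM in CR. Its difference was 0.59 ± 0.19 on the log2 scale (adjusted p = 0.0395, edgeR). Eif2s2 (chr2:154871410-154892935, minus strand) ranged from 74.1 through 153 to 348 CPM in AL and from 83.3 through 279 to 329.9 CPM in CR. Its difference was 0.59 ± 0.19 (adjusted p = 0.0408, edgeR). Both were higher in CR on average at 6 of 6 times, and the ranges of the diets overlapped almost fully. Of the 24 analyses that leave out 1 library, Eif3j1 was called in 16, Eif2s2 in 9, and Eef1d and Eif3j2 in 7 each.

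**Figure D2:**
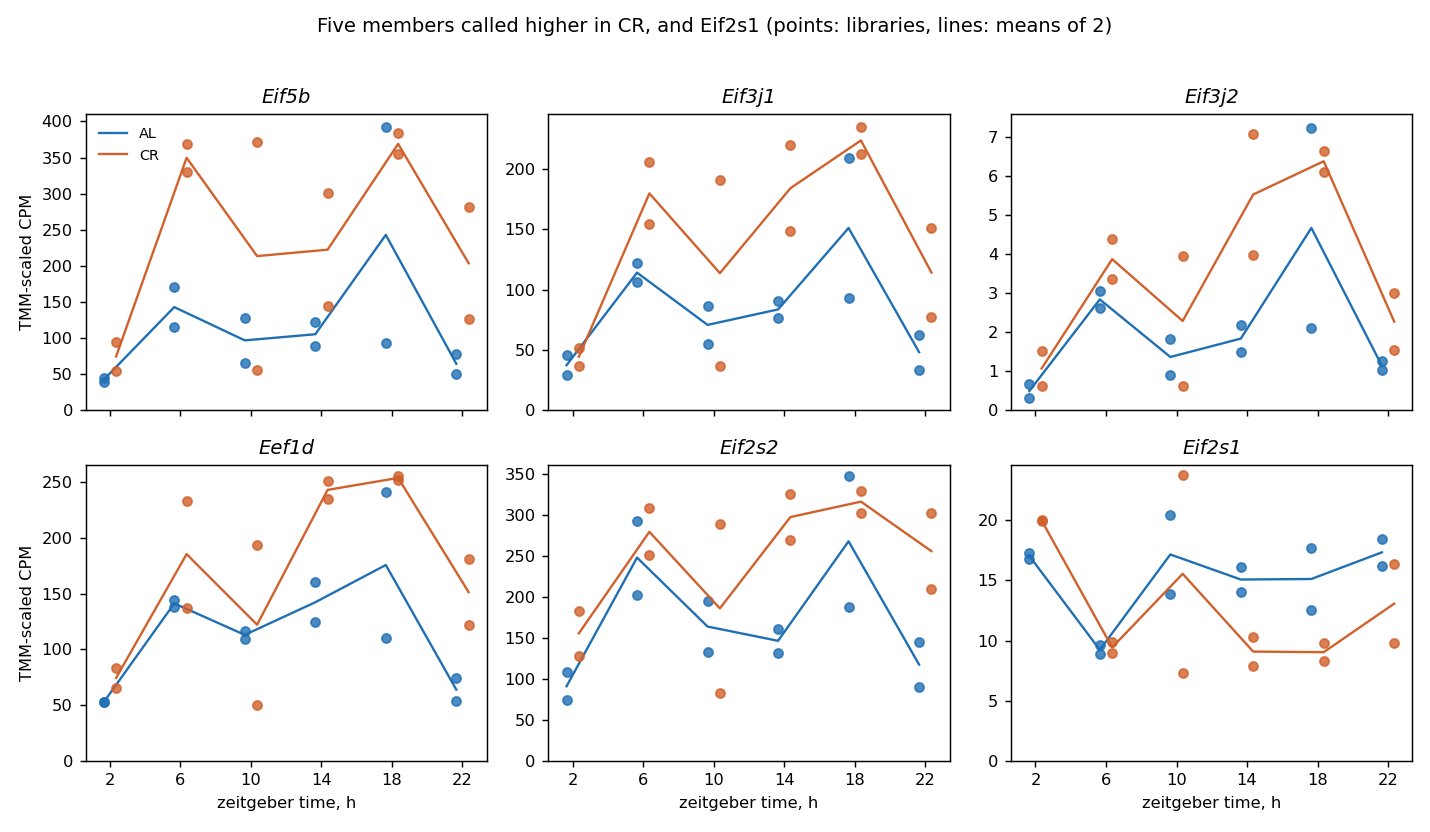
TMM-scaled CPM of the 5 members called higher in CR and of Eif2s1 in each library (points) and the mean of 2 libraries (lines) against zeitgeber time in h, AL in blue and CR in orange. The 5 share their rises and falls, such as the high and the low library of CR ZT10 and of AL ZT18, and Eif2s1 runs the other way.

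These members rose and fell together from library to library. Over the 24 libraries the 10 pairs among them had Pearson correlations of log2 CPM between 0.906 and 0.961. After subtraction of group means the values lay between 0.832 and 0.975. Eif3j2 shares 90.8% of its 50-base words with Eif3j1, so its pairs are not separate ones. All of these members were picked by their diet call in these same libraries. Of the 53 other members with at least 10 CPM, 7 (13.2%) had a correlation with Eif5b above 0.8, against 3.64% of 5715 other genes at that level. These 7 were Eif3j1, Eif2s2 and Eef1d of the called members, and Eef2kmt, Eif3d, Eif5 and Pabpc4. Exons of other genes overlap 43.3% of the exon length of Eif3d and 23.0% of that of Eef2kmt. Transcripts of other genes share 54.8% of the 50-base words of Pabpc4. Tested over 61 members, 24 related positively and 4 negatively to Eif5b at an adjusted permutation p under 0.05 (100000 permutations of libraries, two-sided). This test was not run over all genes, so these counts have no background beside them. At 10 CPM or more, the median r with Eif5b was 0.339 for other members and 0.0585 for all other genes. All libraries contribute a value to each correlation and share a TMM scale, so these are not independent relations. The permutations here and below moved libraries freely between the 12 groups. Their p-values therefore also take in differences between diets and times, and may be too small as a measure of relation within groups.

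Eif3j1 had the closest relation with Eif5b, with r = 0.952 and rho = 0.924 (permutation p = 1e-05 for each, the smallest these permutations can give; adjusted p = 6.78e-05 and 7.62e-05), and r = 0.942 without the 2 libraries farthest from the Eif5b median. Within diets r was 0.932 in AL and 0.961 in CR. Eif2s1 had the most negative one, with r = -0.812 and rho = -0.777 (permutation p = 2e-05 and 4e-05, adjusted p = 0.000102 and 0.000222), r = -0.846 without the 2 farthest libraries, -0.633 within AL and -0.881 within CR. The messages of the alpha and beta subunits of eIF2 thus moved in opposite directions with Eif5b across these libraries, since Eif2s2 had r = 0.91 and rho = 0.921.

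**Figure D3:**
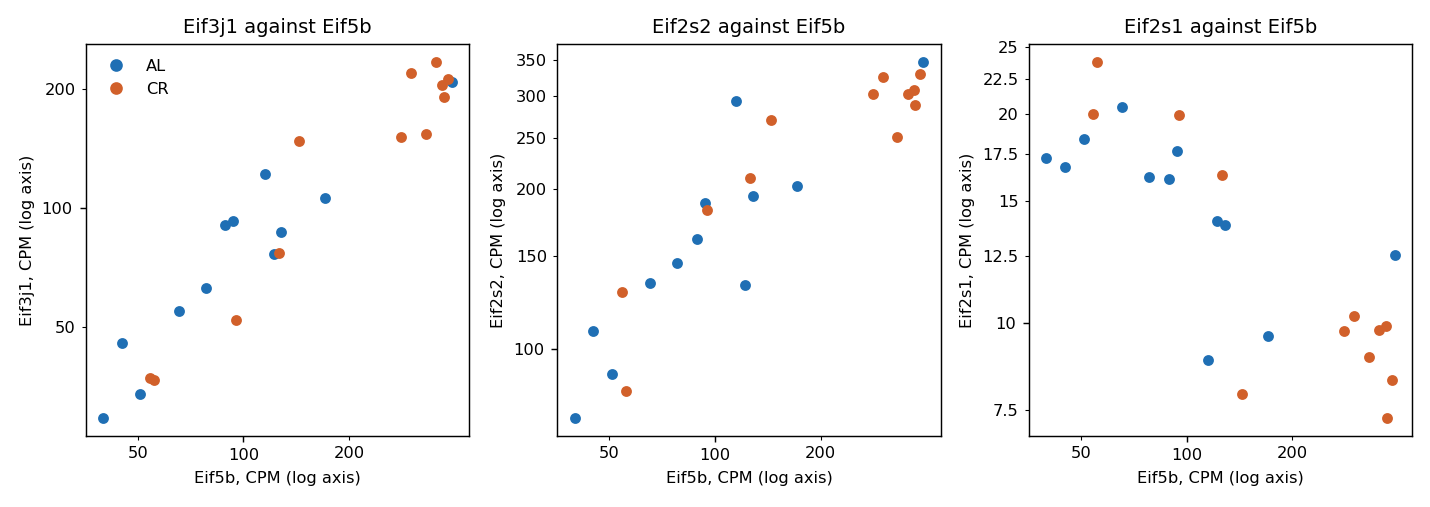
CPM of Eif3j1, Eif2s2 and Eif2s1 against CPM of Eif5b in 24 libraries (each point a library, both axes log, AL blue, CR orange). Eif3j1 (r = 0.952) and Eif2s2 (r = 0.91) climb with Eif5b in both diets and Eif2s1 (r = -0.812) declines.

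Of 10 measures of library composition, 3 also moved with Eif5b at an adjusted permutation p under 0.05. The summed skeletal muscle markers, a list chosen after the data were seen, had r = 0.634 and rho = 0.675 (permutation p = 6e-05 and 0.00048, adjusted p = 0.0006 and 0.0048), with r = 0.627 without the 2 farthest libraries, 0.83 within AL and 0.544 within CR. They summed to 0.313 to 9.32 CPM in AL and 0.667 to 581 CPM in CR, with 3 of 9 tested markers called higher and Tnnc2 at 0 in all but 1 library.

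Summed stellate cell and fibroblast markers had r = 0.526 and rho = 0.497 with Eif5b (permutation p = 0.00888 and 0.0144, adjusted p = 0.0296 and 0.048), r = 0.598 without the 2 farthest libraries, 0.241 within AL and 0.429 within CR. They summed to 83.5 to 320 CPM in AL and 166 to 312 CPM in CR, with 4 of 10 called higher. Endothelial markers had r = -0.55 and rho = -0.533 (permutation p = 0.00584 and 0.00848, adjusted p = 0.0292 and 0.0424), r = -0.54 without the 2 farthest libraries, -0.675 within AL and -0.737 within CR. They summed to 118 to 270 CPM in AL and 120 to 284 CPM in CR, with 2 of 10 called higher and 1 lower. The share of ribosomal RNA features had r = -0.276 and rho = -0.266 (permutation p = 0.191 and 0.209, adjusted p = 0.293 and 0.298), r = -0.351 without the 2 farthest libraries, -0.0246 within AL and -0.584 within CR. With that share as a covariate Eif5b kept a log2 difference of 1.02 (adjusted p = 0.0109). The part of the marker lists in the members' pattern was not tested.

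The members called lower in CR were Eef1akmt1 and Eif4e2. Eef1akmt1, a lysine methyltransferase of eEF1A (chr14:57549597-57571612, minus strand), ranged from 3.68 through a median of 6.64 to 19.9 CPM in AL and from 2.58 through 5.05 to 7.44 CPM in CR. It fell by 0.75 ± 0.22 on the log2 scale (adjusted p = 0.0268, edgeR), with a negative difference at 5 of 6 times. The highest CR library was below 5 AL libraries, of which AL ZT18 2 with 19.9 CPM and AL ZT6 1 with 12.3 CPM were the highest. Eef1akmt1 was called in 15 of the 24 analyses without 1 library.

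Eif4e2 encodes 4EHP, a cap-binding protein that competes with eIF4E and does not recruit eIF4G (chr1:87213914-87240488, plus strand). It ranged from 30.5 through 36.3 to 63.8 CPM in AL and from 20.5 through 29.6 to 41.6 CPM in CR. It fell by 0.42 ± 0.13 on the log2 scale (adjusted p = 0.03, edgeR), and 9 of the 24 analyses without 1 library called it. Eif4e itself, the activating cap-binding protein, stood at 27.0 ± 5.66 CPM in AL and 27.7 ± 8.72 CPM in CR (SD, n = 12 each), a log2 difference of 0.01 ± 0.15.

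Within the eIF3 complex, 2 of 14 tested subunit genes were called higher and 0 lower, both of them eIF3j genes. The other 12 lay between -0.06 for Eif3f and 0.44 for Eif3a, and their median with the eIF3j genes was 0.13 against -0.02 for all genes. As a group the 13 subunits with at least 10 CPM varied together, with a median pairwise r of 0.6 over the 24 libraries, against 0.181 among all such members and 0.0138 among all such genes. After group means were subtracted the eIF3 value was 0.35, against 0.123 among members and 0.00928 among genes. The 6 genes of start codon choice also varied together, with 0.463 before and 0.417 after this subtraction.

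For eIF2 and its exchange factor eIF2B, which reloads eIF2 with GTP, 1 of 8 members was called. Besides Eif2s2, the differences ran from -0.47 ± 0.16 for Eif2b2 (adjusted p = 0.052) to 0.45 ± 0.16 for Eif2b3 (adjusted p = 0.068). Eif2s1 ranged from 8.85 through 16.2 to 20.5 CPM in AL and from 7.31 through 9.84 to 23.8 CPM in CR, a log2 difference of -0.30 ± 0.17 (adjusted p = 0.265). Both AL ZT6 libraries were as low as the CR ones, at 8.85 and 9.59 CPM, and the highest library was CR ZT10 2. Without CR ZT10 2 the value for Eif2s1 was -0.48 (adjusted p = 0.015).

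Of the eIF4F and cap-binding genes 1 of 12 tested was called, Eif4e2. The helicase Eif4a1 stood at 164 ± 36.5 CPM in AL and 132 ± 25.9 CPM in CR, a log2 difference of -0.29 ± 0.13 (adjusted p = 0.139). The scaffold Eif4g1 had a difference of 0.21 ± 0.20 (adjusted p = 0.542). Without CR ZT10 2 the value for Eif4a1 was -0.39 (adjusted p = 0.0167). No member of the start codon group (eIF1, eIF1A, eIF5 and relatives, 6 genes) was called; 2 of them, Eif1ad and Eif5, were called by DESeq2. Pabpc1, the main cytoplasmic poly(A)-binding protein, had a difference of 0.19 ± 0.17 (adjusted p = 0.511), and Pabpc4, a relative of it, 0.56 ± 0.19 (adjusted p = 0.055).

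Among the remaining factors, Eif5a stood at 259.5 ± 69.1 CPM in AL and 217 ± 47.1 CPM in CR, a log2 difference of -0.25 ± 0.13 (adjusted p = 0.227). Eif6, which keeps the large subunit from joining too early, stood at 36.4 ± 13.01 and 45.3 ± 15.03 CPM, a difference of 0.31 ± 0.14 (adjusted p = 0.165). The release factors Etf1 and Gspt1 had differences of 0.08 ± 0.16 and -0.24 ± 0.21 (adjusted p = 0.822 and 0.515).

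Of 8 elongation genes, Eef1d was called higher and none lower. Eef1a1, the most abundant, stood at 936 ± 227.5 CPM in AL and 868 ± 271 CPM in CR (SD, n = 12 each), with a log2 difference of -0.11 ± 0.14 (adjusted p = 0.688). Eef2 stood at 519 ± 207 CPM in AL and 656 ± 154 CPM in CR, with a difference of 0.39 ± 0.17 (adjusted p = 0.142). Eef2k, its kinase, ranged from 2.78 to 8.55 CPM in AL and 0.531 to 6.17 CPM in CR, a difference of -0.62 ± 0.22 (adjusted p = 0.066), with a negative sign at 6 of 6 times.

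Of the 10 classical TOP members, 1 was called higher (Eef1d) and 0 lower, and their median difference was 0.18 against 0.10 for all members and -0.02 for all genes. Their values besides Eef1d ran from -0.13 ± 0.12 for Eef1g, a further subunit of the eEF1 exchange complex, to 0.39 ± 0.17 for Eef2. Eef1b2, the catalytic exchange subunit, had 0.19 ± 0.18 and Eif4b, a helper of eIF4A, 0.18 ± 0.15. Eif3e, Eif3h and Eif3f had 0.24 ± 0.13, 0.14 ± 0.13 and -0.06 ± 0.13. The 10 together summed to 2151 ± 535 CPM in AL and 2322 ± 462 CPM in CR.

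The diet difference was next compared between times. No member was called for a difference that varied with time, by edgeR or by DESeq2, and the same was true for all genes in edgeR (0%). At an unadjusted p under 0.05, 5 of 62 members (8.06%) and 8.63% of all genes varied. The members of smallest p were Eif4a2, Eif3i, Eif6, Pabpc1, Eef1a2 and Eif2b5.

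Eif4a2, the second eIF4A helicase, had the smallest p for variation of the diet difference with time. At ZT2 its AL libraries held 120.7 and 94.1 CPM and the CR libraries 43.5 and 46.2 CPM. At ZT14 they held 65.0 and 57.1 CPM in AL and 149 and 67.2 CPM in CR. The CR libraries were the lower at ZT2 and the higher at ZT14, with log2 differences of -1.26 ± 0.37 and 0.82 ± 0.36. The test of this variation gave an adjusted p of 0.49 in edgeR (unadjusted p = 0.00677).

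The Eef2 levels of the diets lay farthest apart at ZT2 and ZT6, without a call by edgeR. At ZT2 it held 295 and 456 CPM in AL and 987 and 593 CPM in CR, and at ZT6 154 and 378 CPM in AL and 693 and 634 CPM in CR. The CR libraries lay above the AL ones at both times, by 1.07 ± 0.42 and 1.32 ± 0.43 on the log2 scale (adjusted p = 0.513 and 0.191 in edgeR; DESeq2 called ZT6 with 1.37, adjusted p = 0.0353). At ZT10 to ZT22 the differences lay between -0.25 and 0.12. The variation with time was not called (adjusted p = 0.601).

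Eif3i, Eif6 and Pabpc1 also changed sign between times without being called. Eif3i, an eIF3 subunit, had 0.72 ± 0.35 at ZT14 and -0.73 ± 0.36 at ZT6 (adjusted p of the variation 0.524). Eif6 had 1.09 ± 0.35 at ZT2 and -0.46 ± 0.35 at ZT18 (0.527). Pabpc1 had 1.08 ± 0.42 at ZT6 and -0.65 ± 0.41 at ZT14 (0.553).

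At single times, 0 members were called at ZT2 (background 0.562% of all genes), ZT6 (0.387%), ZT10 (0.742%), ZT14 (1.70%) and ZT22 (0.936%), and 1 at ZT18 (0.562%). At an unadjusted p under 0.05 the numbers were 5 at ZT2 (8.06% of members against 7.47% of all genes), 7 at ZT6 (11.3% against 13.7%) and 5 at ZT10 (8.06% against 10.8%). They were 10 at ZT14 (16.1% against 14.2%), 3 at ZT18 (4.84% against 10.5%) and 13 at ZT22 (21.0% against 14.3%). DESeq2 called 0 members at ZT2 and ZT10, 2 at ZT6 (Eif3a and Eef2), 1 at ZT14 (Eif1) and 2 at ZT22 (Eif3d and Eif1ad). Over all 15490 genes it called 213 at ZT2, 344 at ZT10, 322 at ZT6, 596 at ZT14 and 520 at ZT22. Without a composition factor edgeR called 16 members and 1703 of all genes at ZT22. There that scaling moved the median difference of all genes from -0.03 to 0.91. With that scaling the members' median at ZT22 was 1.18. It moved the median of all genes to -0.80 at ZT2, -0.46 at ZT6, -0.26 at ZT10, 0.27 at ZT14 and 0.17 at ZT18, so single-time values here are relative to the TMM scale.

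The call at ZT18 was Eef1a2 (chr2:181147653-181157014, minus strand). Its raw counts were 207 and 520 in the CR ZT18 libraries and 2 and 0 in the AL ZT18 libraries. Elsewhere they were 21 in CR ZT6 1 and at most 4 in every other library. The group means were 5.89 CPM in CR ZT18 and 0.0475 CPM in AL ZT18. With the counts of each group pooled, 727 against 2, and set against the pooled TMM-scaled totals, the ratio was 197, with an exact 95% counting interval of 54.4 to 1632 that covers counting error only. The fitted log2 difference was 7.25 (adjusted p = 0.0322, edgeR), and it was not called when either AL or either CR library of ZT18 was left out, with adjusted p from 0.0752 to 0.32.

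The same 2 libraries carried skeletal muscle messages. Acta1, skeletal muscle actin, had 4431 and 13390 counts in the CR ZT18 libraries, 260 in CR ZT6 1 and at most 38 elsewhere, and the summed muscle markers reached 399 and 581 CPM in CR ZT18 and 84.8 CPM in CR ZT6 1. The part of muscle RNA in the Eef1a2 result was not tested. Without the 4 libraries of ZT18, 4 members were called higher and 2 lower on the diet average. Together these were 9.68% of members, against 10.9% of all genes.

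**Figure D4:**
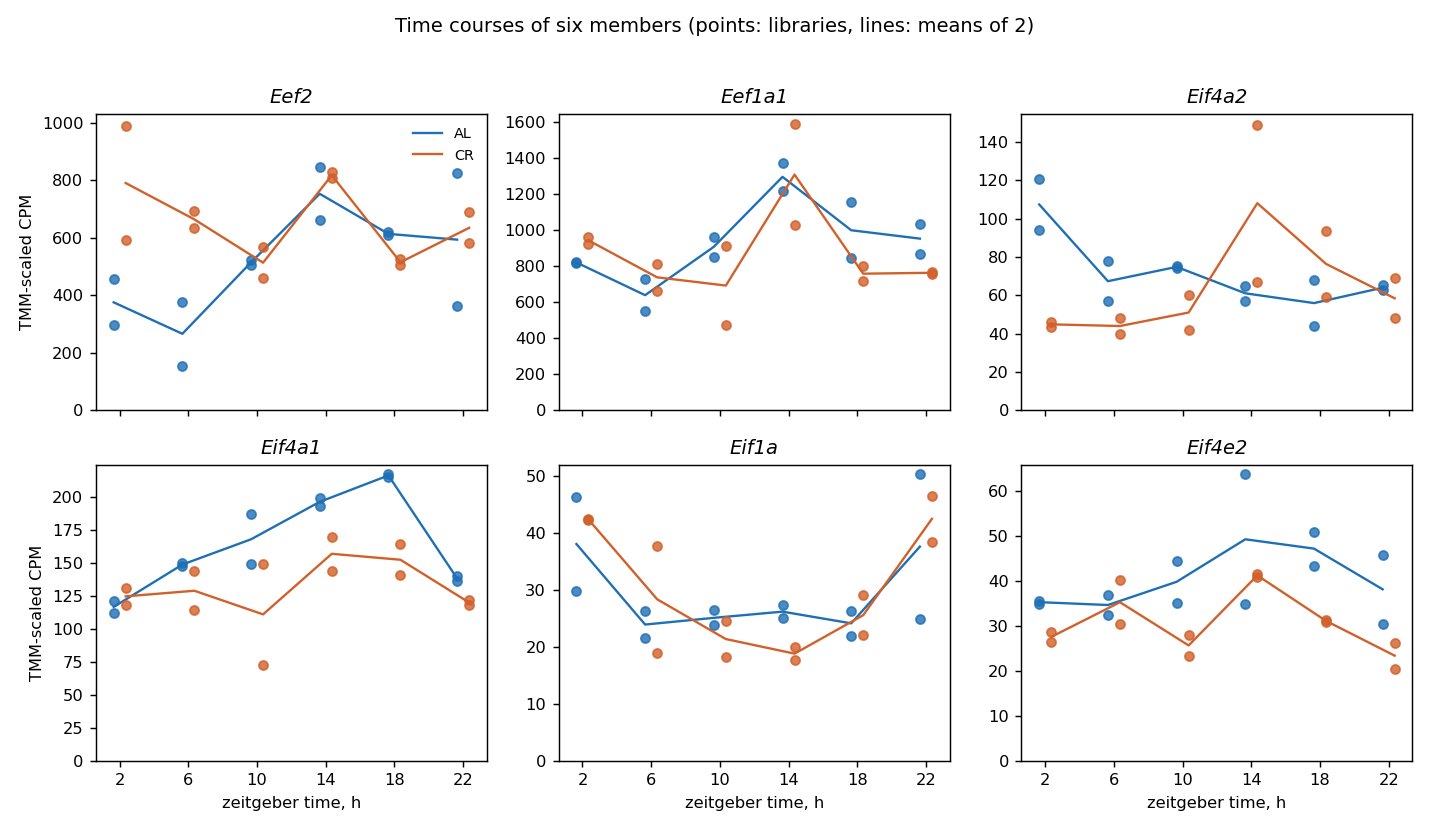
TMM-scaled CPM of Eef2, Eef1a1, Eif4a2, Eif4a1, Eif1a and Eif4e2 in each library (points) and the mean of 2 libraries (lines) against zeitgeber time in h, AL in blue and CR in orange. Eef2 is higher in CR at ZT2 and ZT6, Eif4a2 is lower in CR at ZT2, and the group means of Eif1a are highest at ZT22 and ZT2 in both diets.

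A rhythm of 24 h was fitted in each diet. In AL 0 members were called rhythmic by edgeR (background 0.420% of all genes), with 10 at an unadjusted p under 0.05 (16.1% of members against 10.4% of all genes), while DESeq2 called Eef1g. In CR 1 member was called, Eif1a (background 1.94%), with 13 at an unadjusted p under 0.05 (21.0% against 17.4%), and DESeq2 called Eif1a and Eif4a2. No rhythm was called to differ between diets by edgeR or DESeq2 (0% of all genes in edgeR), with 3 members at an unadjusted p under 0.05 (4.84% against 6.49%).

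Eif1a, a gene for the scanning factor eIF1A, held 42.3 and 42.5 CPM at ZT2, 19.0 and 37.8 CPM at ZT6 and 18.2 and 24.6 CPM at ZT10 in CR. It then held 20.0 and 17.7 CPM at ZT14, 29.1 and 22.1 CPM at ZT18 and 38.5 and 46.5 CPM at ZT22. Levels were thus high around the start of the light phase and low around ZT14, and the fitted amplitude was 0.63 on the log2 scale with a peak at ZT 0.492 (adjusted p = 0.047, edgeR). In AL the amplitude was 0.33 with a peak at ZT 23.9 (adjusted p = 0.554), and the rhythms were not called different (adjusted p = 0.914). The CR call was lost in 21 of 35 alternatives, where the adjusted p ran up to 0.237.

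The fitted peak lay between ZT10 and ZT18 in 45 of 62 members (72.6%) in AL and 36 (58.1%) in CR, against 34.7% and 37.5% of all tested genes. Among genes with at least 10 CPM the shares were 74.1% of members against 45.4% of genes in AL, and 61.1% against 47.9% in CR. In AL the 7 elongation genes other than Eef1a2, which had at most 4 counts in any AL library, and 13 of 14 eIF3 subunits had their fitted peak there. Eef1a2 is counted among the 45. These are fitted times of rhythms that were mostly not called. In AL, Eef1g had an amplitude of 0.58 with a peak at ZT 15.7 (adjusted p = 0.116, edgeR), Eef1b2 0.71 at ZT 14.7 (0.247) and Eef2 0.65 at ZT 16.6 (0.288). In CR the amplitude of Eef2 was 0.07, and the difference of its rhythms had an adjusted p of 0.766.

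Genes that act on these factors were read from lists. Of 12 repressors and kinases of initiation, 1 was higher and 1 lower in CR. Eif4ebp1, which blocks eIF4E when mTORC1 is inactive, ranged from 20.2 through 37.2 to 64.2 CPM in AL and from 13.7 through 24.9 to 40.3 CPM in CR, and fell by 0.65 ± 0.16 (adjusted p = 0.00762, edgeR). Mknk2, a kinase of eIF4E, rose by 0.38 ± 0.12 (adjusted p = 0.0469). The eIF2 kinase genes Eif2ak1 to Eif2ak4 were not called, with values between -0.35 and 0.36.

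Of 11 tested mitochondrial translation factors 1 was higher (Guf1, a mitochondrial elongation factor relative, 0.43 ± 0.14, adjusted p = 0.0434) and 1 lower (Mrrf, the mitochondrial ribosome recycling factor, -0.48 ± 0.15, adjusted p = 0.0344, edgeR). Of 13 tested genes of ribosome recycling, rescue and eIF5A hypusination none was called by edgeR and 1, Hbs1l, had an unadjusted p under 0.05.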

How the data were processed

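Polysome-associated, poly(A)-selected RNA without strand was counted per gene in 24 libraries. The deposited counts are raw whole numbers for 52636 genes. The submitters' processing notes name HTSeq, FastQC, DESeq2 and the build GRCm38.p5; aligner and versions: not given in the sources used here. Depth ranged from 13765993 to 60780432 counts.

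Counts were tested with edgeR 4.0.16 (R 4.3.3): TMM scaling, filterByExpr over the 12 groups (15490 genes), 1 model of 12 group means, or a 24 h cosine and sine per diet, Benjamini-Hochberg adjustment at 0.05. Symbols, exon lengths and shared 50-base words came from a GRCm38 annotation, with 52403 identifiers matched, and CPM and RPKM use TMM-scaled totals. Correlations used log2(CPM + 0.5).

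Named were called members, the 6 of smallest p for variation with time and each rhythm test, the 3 highest and lowest in level, core and TOP members, and called members of other lists. Eif2b3, Eif5, Pabpc4, Eif3d, Eef2kmt, Eif2s3x, Eif1b, Etf1 and members called only by DESeq2 were named after their values were seen. Members and lists were chosen with earlier results of these data known.

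On simulated counts of 13197 genes edgeR recovered 76 of 100 diet changes of 1 log2 unit and 97 of 100 of 2. Of its 183 diet calls on these counts, 10 were false. It also recovered 129 of 200 simulated CR rhythms of amplitude 1. The share of false calls in the real libraries was not tested. Alternatives were DESeq2 1.42.0, other scalings and filters, omission of ribosomal RNA features, their ratio as a covariate, a replicate block, an additive model and omission of libraries. Leaving out ZT18 was chosen after the data were seen.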

Additional observations from a re-analysis of the deposited data

How the results depend on the processing

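The number of members higher in CR on the diet average, 5, became 11 by DESeq2, 9 with a filter of 1 CPM in 12 libraries, and 1 without a composition factor, without CR ZT6 2 and CR ZT18 2, or without AL ZT22 2C and AL ZT10 1. Without single libraries it ran from 1 to 12. The number lower, 2, became 4 by DESeq2, 0 without a composition factor and 1 without AL ZT22 2C and AL ZT10 1, and ran from 0 to 6 without single libraries. The CR rhythm count, 1, became 2 by DESeq2, 3 without the low-count filter, and 0 without a composition factor, with the ribosomal RNA covariate, without CR ZT6 2 and CR ZT18 2, or without ZT18; without single libraries it ran from 0 to 3. The AL rhythm count became 1 by DESeq2. The count at ZT6 became 2 by DESeq2 and 2 without the low-count filter, at ZT14 1 by DESeq2, and at ZT22 2 by DESeq2, 2 without the low-count filter and 16 without a composition factor. At ZT18 it became 0 with the filter of 1 CPM, which removes Eef1a2, and 0 without CR ZT6 2 and CR ZT18 2. Without single libraries the ZT10 count ran from 0 to 1, the ZT18 count from 0 to 1 and the ZT22 count from 0 to 2. Variation with time gave 1 member, Eef1a2, without the low-count filter. On the diet average the share of all genes called also moved, from 7.55% without a composition factor to 16.2% by DESeq2. Without a composition factor 1703 of 15490 genes were called at ZT22. Other causes were not tested.

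With the replicate number as a block the counts were 4 higher and 2 lower, and the CR rhythm count was 0. The labels do not say whether the numbers pair the libraries. Deviations of AL and CR libraries with the same number correlated between -0.202 and 0.306 at ZT2 to ZT18. Over 55 pairs of groups the values ran from -0.61 to 0.724, with 18 above 0.1. These few values cannot settle whether the numbers mark a pairing or a batch. When 1 library of a group is left out, the other is assumed to vary like the rest. Eif5b was called in 36 of 36 alternatives, Eef1akmt1 and Eif3j1 in 25, Eif2s2 and Eif4e2 in 18, Eif3j2 in 16 and Eef1d in 14. No called member changed sign; of 28 named members that were not called, 5 (Eif1a, Eif3f, Eif3i, Eif4e and Eif5a2) did in at least 1 alternative. With 2 libraries a group, the SE of a single-time difference of Eif5b was 0.65 to 0.67 on the log2 scale.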
